A study of Homo sapiens with 24 samples.

Results

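Nuclear genes that encode subunits of respiratory complexes II, III, IV and V were followed through RNA-Seq of 3 triple-negative breast cancer (TNBC) cell lines. Members were SDHA, SDHB, SDHC, SDHD, CYC1 and all genes whose symbols start with UQCR, with COX4 to COX8 or with ATP5, without pseudogenes and antisense genes, and older symbols were updated to current ones. The rule found 50 genes in at least 1 of the 4 deposited tables and 45 in all 4, out of 121974 table rows in all. Complex II had 4 members, complex III 10, complex IV 17 and complex V 19. Of these, 47 were listed for Hs578T, 46 for HCC70, 50 for the KIF20A sgRNA experiment and 47 for the KIF20A overexpression experiment. In each table, 43 members had a mean of at least 1 over the 6 libraries and were tested; the others were the paralogs COX4I2, COX6A2, COX6B2, COX7A1, COX7B2, COX8C and ATP5MGL, of which each table listed 3 to 7. Rows named ATP5S, ATP5SL and the readthrough gene ATP5MF-PTCD1 (older name ATP5J2-PTCD1) also start with these letters but are no subunits of their own and were kept apart.

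The data held 24 libraries in 8 groups of 3 replicates, which the labels call biological triplicates; all 3 lines are established TNBC lines. In Hs578T and HCC70, both labelled WT, FACS separated breast cancer stem cells (BCSCs: CD24-CD44+ and ALDH+) from non-BCSCs that lacked both features. MDA-MB-231 cells received a control sgRNA (sgCtrl) or 1 KIF20A sgRNA (KIF20A sg1) in one experiment, and an empty vector (EV) or a vector for KIF20A overexpression (KIF20A OE) in another, delivered by lentivirus according to the methods of the study. The study asked in the sorted lines which genes mark BCSCs, and in MDA-MB-231 what changes with the level of KIF20A, a mitotic kinesin. The labels give each line or experiment its own batch number, so comparisons were made within tables only. They were normalized separately.

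Complex II (succinate dehydrogenase) passes electrons from succinate to ubiquinone, complex III passes them on to cytochrome c, and complex IV hands them to oxygen. Complexes III and IV pump protons across the inner mitochondrial membrane, and complex V (ATP synthase) uses the returning protons to make ATP. All subunits of complex II are nuclear, whereas complexes III, IV and V combine the nuclear subunits described here with a few encoded by mitochondrial DNA (mtDNA), so that each holoenzyme needs genes from 2 genomes.

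Promoters are shown for members that the results below turn on: UQCRH, COX5B and SDHA as markers of the 3 electron-carrying complexes, COX8A and ATP5IF1 as members with large differences after KIF20A sg1, and SDHD as the member with the lowest fold change in the libraries labelled KIF20A OE. Each line gives 120 bases directly upstream of the annotated start, 5′ to 3′, from RefSeq on GRCh38.p14. Capitals mark letters searched for nuclear respiratory factor 1 (NRF1: GCGCA, any base, GCGC), for ETS factors such as GABPA (CCGGAAGT) and for SP1 (GGGCGG), on either strand.
UQCRH, chr1:46303578-46303697, plus strand: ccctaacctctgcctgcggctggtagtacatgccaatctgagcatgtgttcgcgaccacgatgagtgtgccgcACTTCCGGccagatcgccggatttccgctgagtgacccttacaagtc
COX5B, chr2:97645942-97646061, plus strand: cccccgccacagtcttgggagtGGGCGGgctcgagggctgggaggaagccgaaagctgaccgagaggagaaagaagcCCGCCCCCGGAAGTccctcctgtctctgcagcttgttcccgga
COX8A, chr11:63974500-63974619, plus strand: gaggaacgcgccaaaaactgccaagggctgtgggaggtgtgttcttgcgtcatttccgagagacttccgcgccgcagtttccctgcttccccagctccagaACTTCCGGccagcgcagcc
SDHA, chr5:218183-218302, plus strand: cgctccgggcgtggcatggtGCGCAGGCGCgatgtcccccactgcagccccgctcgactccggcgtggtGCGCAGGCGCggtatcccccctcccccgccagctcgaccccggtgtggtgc
ATP5IF1, chr1:28235989-28236108, plus strand: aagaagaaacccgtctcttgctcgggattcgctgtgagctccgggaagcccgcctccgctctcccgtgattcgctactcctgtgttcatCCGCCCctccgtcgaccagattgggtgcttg
SDHD, chr11:112086704-112086823, plus strand: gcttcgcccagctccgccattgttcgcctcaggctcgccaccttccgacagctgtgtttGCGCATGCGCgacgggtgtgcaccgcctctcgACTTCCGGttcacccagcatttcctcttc
UQCRH and COX8A each carried 1 ETS match, read on the minus strand as ACTTCCGG. COX5B carried 1 SP1 match on the plus strand and another on the minus strand that abutted an ETS match without overlap. SDHA carried 2 NRF1 matches. SDHD carried an ETS match and an NRF1 match that reads the same on both strands. ATP5IF1 had only an SP1 match in this window.

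Over whole promoter windows (250 bases before and 50 after each start), 38 of the 50 members matched an entry in the RefSeq table. NRF1 letters were in 11 of these 38 windows (28.9%) against 6.08% of all 27305 windows, and ETS letters were in 9 (23.7%) against 4.33%. Letters for YY1 (AAGATGGC) were in 5 (13.2%) against 3.03%, for SP1 in 23 (60.5%) against 44%, and for the TATA box (TATAAA) in 3 (7.89%) against 12.1%. Median GC content was 61.3% in member windows and 58.3% in all. Among windows with a GC content of 60% or more, NRF1 letters were in 42.9% of the 21 members and in 11.3% of all 12488. These matches describe the letters in the windows and no binding was measured.

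Before the comparisons, values of KIF20A and of marker genes were set beside the labels. KIF20A was higher in BCSCs of both lines, with means of 217 TPM (non-BCSCs) and 297 TPM (BCSCs) in Hs578T and of 71.4 and 125 TPM in HCC70 (limma, adjusted P = 0.00718 and 0.00157). The study picked KIF20A from these same sorted libraries, so its direction is no independent check of the labels. The sorting markers were CD24, CD44, ALDH1A3 and ALDH1A1. In Hs578T, 1 of 3 tested was higher in BCSCs and 0 lower (limma, adjusted P under 0.05, against 2.9% and 4.26% of all genes). In HCC70, 0 of 4 passed, against 2.83%. After KIF20A sg1, KIF20A was listed at 153, 173 and 156 CPM in sgCtrl and 122, 145 and 91.1 CPM in KIF20A sg1 (limma, log2 fold change -0.45, adjusted P = 0.690), so the groups did not overlap but the RNA of the targeted gene did not pass the test. The study reported depletion of KIF20A protein by its sgRNAs in MDA-MB-231 cells from immunoblots. RNA values do not measure the protein. In the OE experiment EV had 101, 143 and 124 CPM of KIF20A, and the libraries labelled KIF20A OE had 1348, 269 and 896 CPM. Those 3 libraries stood apart from the labelled line: 14 marker genes of MDA-MB-231 (CD44, VIM, AXL, CAV1 and others) summed to 11563 to 12835 CPM in EV but to 702 to 1190 CPM in these 3, where 7 of the 14 still had a mean of at least 10 CPM against 14 of 14 in EV. A list of 8 genes of kidney development and neurofilaments, chosen with earlier results known, summed to 72.6 to 81.9 CPM in EV and to 1388 to 1974 CPM in the same 3 libraries. In that comparison, KIF20A, these markers and the members changed with the same 3 libraries, so what each owes to the vector and to other differences between the libraries cannot be told apart. In the sgRNA experiment the same 14 markers summed to 9581 to 11143 CPM in sgCtrl and 9088 to 10209 CPM in KIF20A sg1.

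In the sorted lines, values are TPM (transcript abundances scaled by transcript length and library), so levels of different genes can be set side by side. Members made up 1.52% of all TPM in Hs578T non-BCSCs and 1.47% in BCSCs, and 1.16% in both fractions of HCC70. Their summed level was 15465, 15171 and 14954 TPM in the Hs578T non-BCSC libraries and 14515, 14205 and 15399 TPM in the BCSC libraries. In HCC70 the sum was 11628, 11810 and 11433 TPM in non-BCSCs against 11491, 11576 and 11836 TPM in BCSCs. The 2 fractions overlapped in both lines.

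The first 2 places in the order of levels went to small subunits, and in Hs578T the large ATP synthase head subunits ATP5F1B and ATP5F1A came next. In Hs578T, ATP5F1E, the epsilon subunit of the ATP synthase head, was highest (mean ± SD of 3 libraries, 1498 ± 92.8 TPM for non-BCSC and 1391 ± 68.4 TPM for BCSC), followed by COX7C of complex IV (1265 ± 58.7 and 1288 ± 42.0 TPM); their ranges did not overlap in either fraction, though in BCSCs they nearly met. In HCC70, ATP5F1E (806 ± 31.8 and 730 ± 37.5 TPM) and UQCRH, the hinge protein of complex III (788 ± 43.9 and 821 ± 41.1 TPM), held the first places, in that order in non-BCSCs and in the reverse order in BCSCs, with ranges that overlapped in non-BCSCs but not in BCSCs. UQCRH led complex III in all 4 groups. SDHC, a membrane anchor of complex II, had the lowest level of the tested members in Hs578T (20.3 ± 1.06 and 17.9 ± 0.927 TPM), and ATP5F1D, the delta subunit of the ATP synthase head, had the lowest in HCC70 (14.9 ± 1.10 and 8.73 ± 0.905 TPM). Median levels of tested members were 113 TPM for complex II, 208 TPM for complex III, 520 TPM for complex IV and 291 TPM for complex V in Hs578T non-BCSCs. In HCC70 non-BCSCs the corresponding medians were 181, 144, 279 and 200.2 TPM. Between the highest and the lowest tested member of complex V, mean TPM differed by 32.3 times in Hs578T non-BCSCs, by 54.2 times in HCC70 non-BCSCs and by 83.7 times in HCC70 BCSCs.

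**Figure D1:**
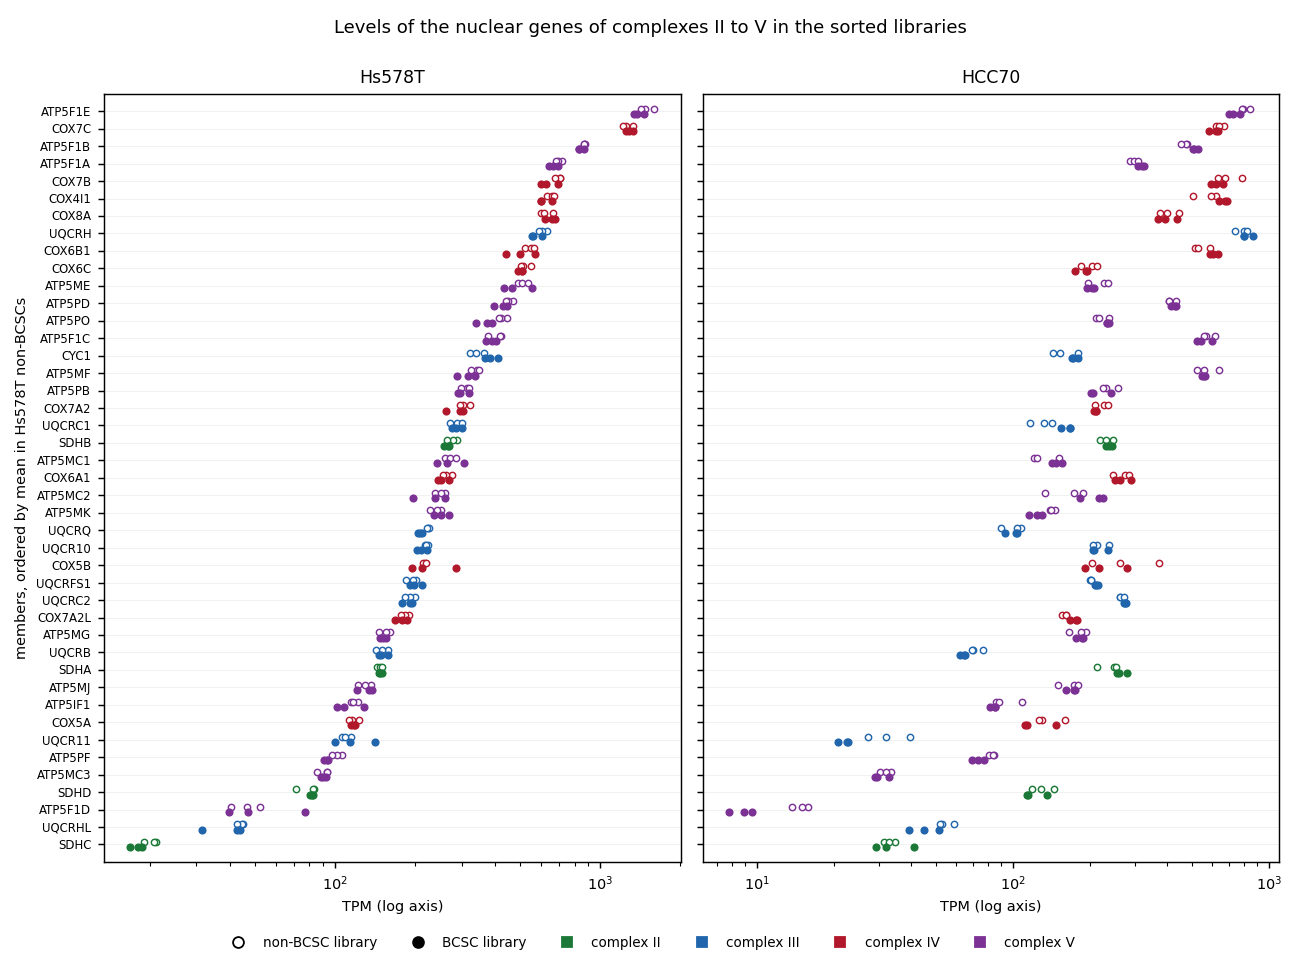
TPM (log axis) of each tested member in the sorted libraries of Hs578T (left) and HCC70 (right), with open circles for non-BCSC and filled circles for BCSC libraries and colour for the complex. ATP5F1E and COX7C head the order in Hs578T, and the open and filled circles of ATP5F1D and UQCR11 lie apart in HCC70.

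In Hs578T, no member differed between BCSCs and non-BCSCs after adjustment (limma on log2(TPM + 1), 0 of 43 members with adjusted P under 0.05, against 7.15% of the 13324 genes tested, 2.9% higher and 4.26% lower). At an unadjusted P under 0.05, 1 member was higher, against 8.98% of all genes, and 4 were lower, against 13.5%. The same 5 were the members whose groups did not overlap, against 12.0% higher and 17.0% lower among all genes. Of the 43 members, 29 had a fold change below 0, where 54.6% of all genes did, with a median log2 fold change of -0.05 against -0.01 over all genes tested. In bulk samples such as these, fewer cells of a kind and less RNA per cell cannot be told apart.

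ATP5PO, the stalk subunit that ties the head of ATP synthase to its membrane part, had the smallest P. It was listed at 446, 424 and 417 TPM in non-BCSCs against 391, 340 and 372 TPM in BCSCs. All BCSC libraries were below all non-BCSC libraries (limma, log2 fold change -0.22, standard error 0.06, unadjusted P = 0.00607, adjusted P = 0.0683). ATP5PF, another subunit of this peripheral stalk, was listed at 106, 101 and 97.2 TPM against 93.7, 93.4 and 90.7 TPM (log2 fold change -0.13, adjusted P = 0.144). The other stalk subunits ATP5PB and ATP5PD had log2 fold changes of -0.04 and -0.09, so all 4 were below 0, though none passed the test. With a minimum mean of 10 TPM in place of 1, ATP5PO passed (limma, adjusted P = 0.0485).

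In complex III, CYC1, the cytochrome c1 subunit that hands electrons to cytochrome c, was the only member whose BCSC libraries were all above the non-BCSC libraries. It was listed at 323, 339 and 363 TPM in non-BCSCs against 382, 368 and 412 TPM in BCSCs (log2 fold change 0.18, standard error 0.06, adjusted P = 0.128). UQCRQ, a small subunit near cytochrome b, was listed at 224, 225 and 222 TPM against 208, 206 and 212 TPM (log2 fold change -0.10, adjusted P = 0.163). UQCRH was listed at 631, 600 and 586 TPM against 559, 555 and 600 TPM, and these groups overlapped (log2 fold change -0.08, adjusted P = 0.375).

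In complex II, SDHC was the member with lower BCSC libraries, at 21.1, 19.1 and 20.7 TPM against 18.7, 16.9 and 18.0 TPM (log2 fold change -0.17, adjusted P = 0.131). SDHA, which holds the succinate-binding flavoprotein site, was listed at 143, 148 and 150 TPM against 147, 146 and 151 TPM, and its groups overlapped (log2 fold change 0.01, standard error 0.04). SDHB, the iron-sulfur subunit, and SDHD, the other anchor, had log2 fold changes of -0.07 and 0.05. In complex IV, the groups overlapped for all 11 tested members, with log2 fold changes between -0.13 (COX7B) and 0.07 (COX5B); COX5B was listed at 218, 214 and 219 TPM in non-BCSCs against 194, 285 and 212 TPM in BCSCs, so 1 BCSC library lay above the others. COX8A (0.06) and ATP5MF (-0.11) also overlapped.

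In HCC70, ATP5F1D was the only member that passed (limma, 1 of 43, against 2.83% of the 13218 genes tested; 0 members higher, against 2.28%, and 1 lower, against 0.552%). It was listed at 15.9, 15.0 and 13.7 TPM in non-BCSCs against 8.87, 9.55 and 7.76 TPM in BCSCs. The groups did not overlap, and ATP5F1D was lower in BCSCs (limma, log2 fold change -0.71, standard error 0.09, adjusted P = 0.0113). Without HCC70 BCSC replicate 1 the log2 fold change was -0.72 with adjusted P = 0.0620. Its transcript has a GC content of 69.5%, the highest among the members, and after a correction of each library for GC content, chosen after the values were seen, the log2 fold change was -0.43 (adjusted P = 0.0126).

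UQCR11, a small subunit of complex III, came next among the lower members, with 39.7, 32.0 and 27.1 TPM in non-BCSCs against 20.7, 22.6 and 22.5 TPM in BCSCs (log2 fold change -0.55, standard error 0.12, adjusted P = 0.0597). All BCSC libraries were below the non-BCSC libraries. At an unadjusted P under 0.05, 6 members were higher, against 16.0% of all genes, and 6 lower, against 7.74%. Groups did not overlap for 8 members in the higher direction, against 20.9%, and for 8 in the lower, against 10.1%. The 6 higher ones were UQCRC1, a core protein of complex III, ATP5MC2 of the proton-carrying c-ring, COX4I1, ATP5F1B, the catalytic beta subunit of ATP synthase, COX6B1 and COX7A2L. UQCRC1 was listed at 117, 143 and 132 TPM against 154, 166 and 166 TPM (log2 fold change 0.32, standard error 0.08, adjusted P = 0.0707).

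Within complex III of HCC70 the 4 core subunits (UQCRC1, UQCRC2, CYC1, UQCRFS1) had fold changes above 0, between 0.05 and 0.32, and 5 of the 6 small supernumerary subunits had fold changes below 0, down to -0.55, while none of the 10 passed the test. UQCRH was the exception among the small ones, at 801, 824 and 739 TPM against 797, 798 and 869 TPM (log2 fold change 0.06, groups overlapping). Its near copy UQCRHL, an intronless gene that can share reads with UQCRH, was listed at 52.6, 52.0 and 58.8 TPM against 44.9, 51.5 and 39.4 TPM. The sum of both was 843 ± 40.2 TPM in non-BCSCs against 866 ± 36.2 TPM in BCSCs (log2 fold change 0.04). COX5B was listed at 371, 263 and 203 TPM against 192, 216 and 280 TPM, the widest spread between replicates among the named members (log2 fold change -0.26, standard error 0.22). SDHA was listed at 212, 247 and 253 TPM against 259, 279 and 256 TPM; the BCSC libraries were the higher ones, but the gene did not pass (log2 fold change 0.16, adjusted P = 0.264). The median of all 43 members was -0.02, beside 0.02 over all genes, with 19 members above 0, where 56.0% of all genes were, and the other 24 below.

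The difference between the fractions was then compared between the lines in a model of all 12 sorted libraries. ATP5PO was the only member with an interaction of fraction and cell line (limma, 1 of 43 with adjusted P under 0.05, against 7.11% of the 11668 genes tested, 5.62% of them higher and 1.49% lower in HCC70). Its log2 fold change was -0.22 in Hs578T and 0.09 in HCC70, where it was listed at 211, 217 and 237 TPM in non-BCSCs against 234, 237 and 234 TPM in BCSCs, a difference of 0.31 (standard error 0.08, adjusted P = 0.0475). With 1 library left out in turn, the call remained in 1 of 12 fits (without HCC70 non-BCSC replicate 3) and was lost in the other 11 (adjusted P up to 0.106), and it was lost after rescaling by the median of ratios (0.25, adjusted P = 0.0806). UQCR11 (difference -0.63, adjusted P = 0.0600) and ATP5F1D (-0.89, adjusted P = 0.0627) had larger differences with wider errors. In Hs578T, ATP5F1D was listed at 40.6, 46.5 and 52.1 TPM in non-BCSCs against 46.8, 77.1 and 39.9 TPM in BCSCs, so 1 library set its mean there. Since cell line is also batch, the line and the batch cannot be told apart in this model.

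**Figure D2:**
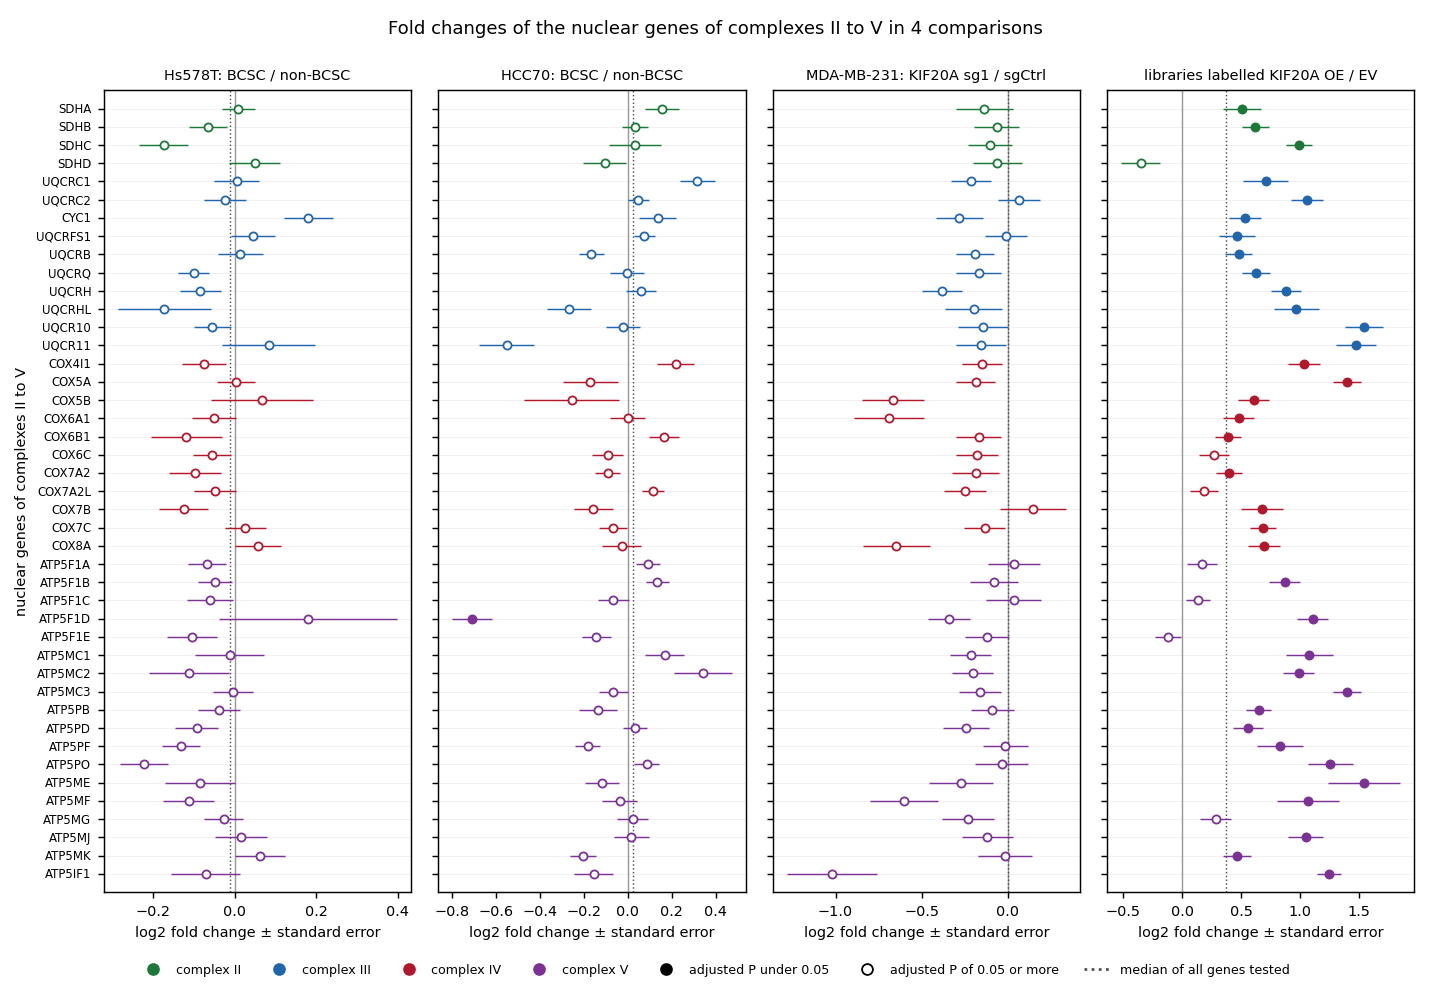
Log2 fold change ± standard error (limma) of each tested member in the 4 comparisons, grouped by complex, with filled circles for an adjusted P under 0.05 and a dotted line for the median of all genes tested. In the sorted lines only ATP5F1D in HCC70 is filled, after KIF20A sg1 no circle is filled, and for the libraries labelled KIF20A OE 36 of 43 are filled on the deposited CPM; rescaled by the median of ratios, 23 would be, 2 of them lower.

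After KIF20A sg1 in MDA-MB-231 cells, no member passed the test, and neither did any other gene (limma, 0 of 43 members and 0 of 12852 genes with adjusted P under 0.05, or 0.0%). At an unadjusted P under 0.05, 7 members were lower and 0 higher, against 4.72% and 2.28% of all genes, or 7.0% in either direction. With edgeR on recovered reads, 0 genes passed (972 at an unadjusted P under 0.05), and with DESeq2 16 genes passed, 1 of them a member, ATP5IF1 (adjusted P = 0.0164, against 0.0444% of all genes lower). Values in this table, named CPM by the submitters, are reads divided by 1 factor per library without a length term, from 41424338 to 51018667 reads per library, so only values of 1 gene are set side by side. Of the 43 members, 39 had a fold change below 0, where 49.6% of all genes did, and 4 above 0, against 50.4%. Their median log2 fold change was -0.17 and that of all genes 0.00. The members' groups did not overlap for 15 genes, all lower in KIF20A sg1, against 7.3% of all genes for this direction, and for 0 in the higher one, against 5.73%.

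ATP5IF1, which encodes the inhibitor that keeps ATP synthase from running backwards, had the largest difference. It was listed at 41.1, 41.7 and 18.8 CPM in sgCtrl and 17.6, 14.8 and 13.5 CPM in KIF20A sg1. The groups did not overlap, but sgCtrl replicate 3 lay close to the KIF20A sg1 libraries and far from the other controls (limma, log2 fold change -1.02, standard error 0.26, unadjusted P = 0.00239, adjusted P = 0.690).

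The same arrangement was seen for the 3 of 11 tested members of complex IV that were lower at an unadjusted P under 0.05. COX5B, a subunit on the matrix side, was listed at 66.9, 66.6 and 41.9 CPM in sgCtrl and 34.5, 38.8 and 33.8 CPM in KIF20A sg1 (log2 fold change -0.67, standard error 0.18). COX8A, a small membrane subunit of complex IV, was listed at 76.2, 69.1 and 44.4 CPM against 42.0, 42.6 and 33.2 CPM (log2 fold change -0.65, standard error 0.19). COX6A1, the form of COX6A found outside muscle, was listed at 21.6, 21.7 and 13.3 CPM against 12.8, 10.6 and 9.92 CPM (log2 fold change -0.69, standard error 0.20). In each, all sgCtrl libraries were above all KIF20A sg1 libraries and replicate 3 was the lowest control. Unadjusted P was 0.00316, 0.00645 and 0.00553, and adjusted P was 0.690 for each.

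In complexes III and V, further members were lower by unadjusted P. UQCRH was listed at 98.5, 104 and 87.9 CPM in sgCtrl and 75.5, 73.6 and 72.4 CPM in KIF20A sg1, with groups apart (log2 fold change -0.38, standard error 0.12, unadjusted P = 0.00716). With its copy UQCRHL added, the log2 fold change was -0.37. ATP5MF, a subunit of the membrane part of ATP synthase, was listed at 43.9, 41.3 and 24.95 CPM against 23.3, 25.1 and 21.3 CPM, so the groups overlapped (log2 fold change -0.60, unadjusted P = 0.0112). ATP5F1D was listed at 93.5, 115 and 94.3 CPM against 78.8, 78.1 and 80.4 CPM (log2 fold change -0.34, unadjusted P = 0.0176); here replicate 3 was not the odd control. UQCRH, COX5B, COX8A, ATP5MF and SDHA were picked by the study from results of these same libraries, so their directions are not independent evidence.

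Complex II and the large head subunits of ATP synthase had small differences. SDHA was listed at 13.2, 13.7 and 11.1 CPM in sgCtrl and 13.0, 11.6 and 9.83 CPM in KIF20A sg1, with overlapping groups (log2 fold change -0.14, standard error 0.17). SDHB, SDHC and SDHD had log2 fold changes of -0.06, -0.10 and -0.06, all with overlapping groups. ATP5F1A and ATP5F1B, the alpha and beta subunits of the head, had log2 fold changes of 0.04 and -0.08. COX7B (0.15), UQCRC2 (0.07), ATP5F1A and ATP5F1C (0.03) were the 4 members above 0.

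**Figure D3:**
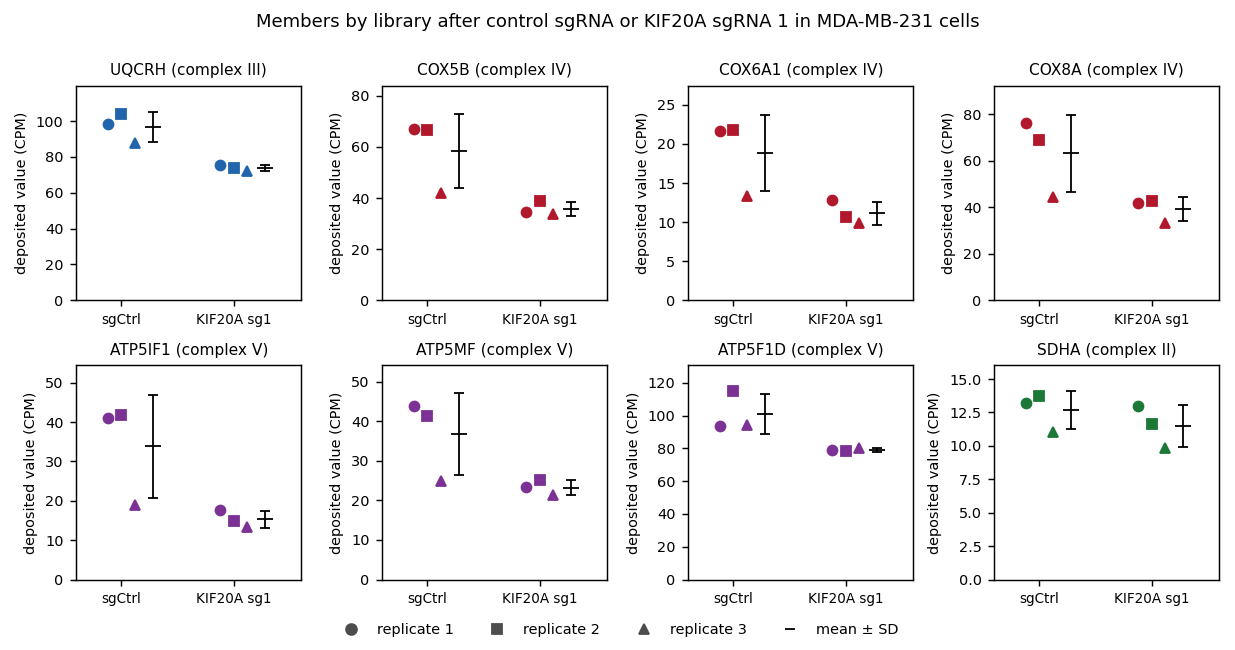
Deposited CPM of 8 members in each sgCtrl and KIF20A sg1 library, with 1 symbol shape per replicate number and the mean ± SD beside the points. For COX5B, COX6A1, COX8A and ATP5IF1, sgCtrl replicate 3 (triangle) lies between the other controls and the KIF20A sg1 libraries, and for ATP5MF it lies among the latter.

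The result depended on sgCtrl replicate 3. Without this library, 5 members were lower (limma, ATP5IF1, COX5B, ATP5MF, COX8A and COX6A1, adjusted P = 0.00960, 0.0246, 0.0300, 0.0342 and 0.0385), against 1.07% of all genes, and 0 were higher, against 0.0545%. UQCRH had adjusted P = 0.0577. The log2 fold changes of ATP5IF1 and COX5B were then -1.39 and -0.89. ATP5IF1, ATP5MF, COX8A and COX6A1 each share at least 15% of exon bases with another gene, while COX5B does not. The part of this overlap in their values was not tested.

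The GC content of transcripts moved with this library and with the comparison. Across 12366 genes, the deviation of each sgCtrl library from its group mean correlated with GC content at Spearman's rho of 0.50, 0.50 and -0.71 for replicates 1, 2 and 3, and the fold change itself at -0.57 (rho with transcript length 0.37); genes of 1 library share its depth and preparation, and no P is given. The tenth of genes with the lowest GC content had a median log2 fold change of 0.15 and the tenth with the highest -0.21. Across the 43 members rho was -0.47 with GC content and 0.48 with length. The correction for GC content left 0 members with adjusted P under 0.05 and a member median of -0.17, with COX5B at -0.61, UQCRH at -0.42 and ATP5IF1 at -0.995. ATP5F1D moved to -0.10, and 16 members were lower at an unadjusted P under 0.05, against 3.92% of all genes in this direction (6.38% in either). With a further correction for length the median was -0.07, with 34 members below 0 and 11 lower at an unadjusted P under 0.05, against 3.1% of all genes in this direction (5.26% in either). With the GC correction and without sgCtrl replicate 3, ATP5IF1 alone among the members passed (limma, adjusted P = 0.0377, against 0.0778% of all genes). What part sequence composition has in the fold changes beyond these values was not tested.

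**Figure D4:**
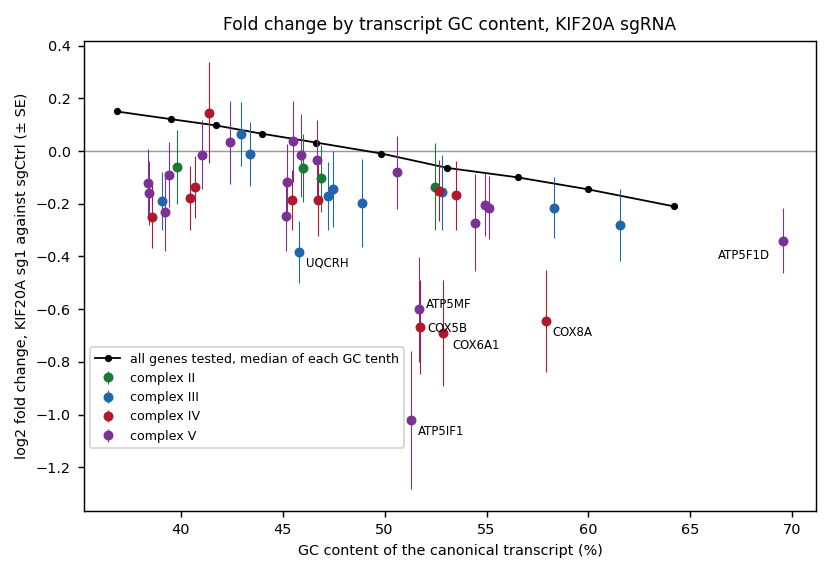
Log2 fold change ± standard error of each tested member after KIF20A sg1 (y axis) against the GC content of its canonical transcript in percent (x axis), with the median of all genes tested in 10 classes of GC content as a black line. The line falls from 0.15 to -0.21, and ATP5IF1, COX5B, COX6A1, COX8A and ATP5MF lie well below it.

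The genes of the same complexes on mtDNA were listed only in this table. All 6 had a fold change above 0, none with adjusted P under 0.05, and MT-CO2, a catalytic subunit of complex IV, had the smallest P (log2 fold change 0.65, unadjusted P = 0.0389). MT-CO1 ranged from 2408 to 6006 CPM within sgCtrl and from 3477 to 8416 CPM within KIF20A sg1, and the groups overlapped for all 6. Among 45 tested genes for assembly factors and partners of complexes II to V, 0 passed and the median was -0.06. At an unadjusted P under 0.05, 4 were lower (UQCC2, UQCC3, HIGD2A and TACO1), against 4.72% of all genes. Among 11 regulators of such genes, 0 passed. ESRRA, a nuclear receptor that acts with the coactivator PGC-1, was the one at an unadjusted P under 0.05 (log2 fold change -0.42), against the same 4.72% of all genes lower.

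Most members were higher in the libraries labelled KIF20A OE than in EV on the deposited CPM, but how many depended on the scaling. On the values as deposited, 36 of 43 were higher (limma, adjusted P under 0.05) and 0 lower, against 46.2% and 23.4% of the 15265 genes tested. The groups did not overlap for 38 members in the higher direction, against 48.9%, and for 1 in the lower, against 25.2% (74.1% in either). Rescaled by the median of ratios, 21 were higher (34.2% of all genes) and 2 lower (32.5%), or 23 in either direction (66.7%). At an unadjusted P under 0.05, 36 members differed on the deposited scale (72.2% of all genes) and 25 after rescaling (69.8%). EdgeR and DESeq2 on recovered reads (15971297 to 22182293 per library) each gave 20 higher and 2 lower members, against 33.4% and 31.7% of all genes with edgeR and 26.3% and 23.8% with DESeq2. On the deposited scale 41 members were above 0, where 63.4% of all genes were. The median log2 fold change was 0.68 for members and 0.37 for all genes on the deposited scale, and 0.32 and 0.04 after rescaling.

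Members with the largest differences were higher under both scalings. ATP5ME, a small membrane subunit of ATP synthase, was listed at 2.86, 5.12 and 8.29 CPM in EV against 18.5, 15.7 and 15.7 CPM (log2 fold change 1.54, limma, adjusted P = 0.00223; 1.22 after rescaling). UQCR10, a small subunit of complex III, was listed at 14.4, 17.8 and 16.5 CPM against 48.1, 57.3 and 42.7 CPM (1.54, adjusted P = 6.3e-05; 1.19 after rescaling). COX5A of complex IV was listed at 69.7, 86.6 and 77.1 CPM against 202, 199 and 216 CPM (1.39, adjusted P = 1.8e-05; 1.031 after rescaling). None of these groups overlapped. UQCR11 (1.48, then 1.13), ATP5MC3 of the c-ring (1.40, then 1.04), ATP5PO (1.26, then 0.91), ATP5IF1 (1.24, then 0.88) and ATP5F1D (1.11, then 0.74) were also called on both scales. ATP5ME, UQCR10, UQCR11, ATP5PO and ATP5IF1 each share at least 15% of exon bases with another gene, while COX5A, ATP5MC3 and ATP5F1D do not.

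By complex, all 10 members of complex III, 9 of 11 of complex IV, 14 of 18 of complex V and 3 of 4 of complex II were higher on the deposited scale, against 46.2% of all genes. After rescaling, 5 of 10, 3 of 11, 12 of 18 and 1 of 4 were higher, against 34.2%, and 1 member each of complexes V and II was lower, against 32.5%. Among the roles in complex V, the 3 c-ring genes (0.99 to 1.40) and the 4 peripheral stalk genes (0.56 to 1.26) were all called, while 2 of the 5 genes of the head were (ATP5F1B 0.87 and ATP5F1D 1.11). After rescaling, all 3 c-ring genes, 3 of the 4 stalk genes (not ATP5PD) and the same pair of head genes were higher. ATP5F1A (0.17, then -0.20) and ATP5F1C (0.14, then -0.23) did not pass on either scale and turned in sign, as did ATP5MG, COX6C and COX7A2L. ATP5F1E (-0.12) did not pass on the deposited scale but was lower after rescaling (-0.49, adjusted P = 0.00540).

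UQCRH was listed at 39.0, 49.4 and 46.7 CPM in EV against 80.4, 83.5 and 86.0 CPM, with groups apart (0.88, adjusted P = 0.000394; 0.52, adjusted P = 0.00537 after rescaling). COX5B was listed at 50.8, 64.0 and 54.6 CPM against 80.5, 88.5 and 89.4 CPM (0.60, adjusted P = 0.00304), and did not pass after rescaling (0.24, adjusted P = 0.117). COX8A was listed at 36.6, 45.5 and 35.5 CPM against 63.9, 64.5 and 62.4 CPM (0.69, adjusted P = 0.00193), and also did not pass after rescaling (0.33, adjusted P = 0.0578). Both had groups that did not overlap on the deposited scale.

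Complex II was split. SDHC was listed at 57.0, 56.3 and 52.7 CPM in EV against 119, 102 and 111 CPM (0.99, then 0.63, called on both scales). SDHB had 0.62, then 0.26, and was not called after rescaling. SDHD went the other way, at 69.2, 91.1 and 70.3 CPM against 49.3, 66.4 and 64.5 CPM. Its groups did not overlap, and it was not called on the deposited scale (-0.35, adjusted P = 0.0902) but was lower after rescaling (-0.71, adjusted P = 0.00547).

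SDHA, COX6A1 and ATP5MF overlap other genes on the same strand, and the rows of those genes also held CPM in this table. Whether these rows took reads of the members was not tested. SDHA (chromosome 5, 218303 to 257082, GRCh38, GENCODE 44) was listed at 10.5, 9.91 and 11.0 CPM in EV against 14.9, 16.5 and 14.6 CPM, with groups apart (0.51, adjusted P = 0.0201; 0.17, adjusted P = 0.371 after rescaling). The readthrough gene that covers 69.4% of its exon bases was listed at 70.4 ± 7.74 and 94.9 ± 4.78 CPM, so the row named SDHA held 13.0% of their sum in EV. The sum, chosen after the values were seen, had a log2 fold change of 0.45 on the deposited scale. ATP5MF rested on 18, 24 and 22 reads in EV and 49, 118 and 43 reads in the libraries labelled KIF20A OE, beside 21.6 ± 3.43 and 40.8 ± 10.5 CPM for ATP5MF-PTCD1, and had a fold change of 1.07, or 0.91 for the sum. COX6A1 had 0.48, or 0.51 for the sum with its readthrough gene. In the sgRNA table these partners held at most 0.98 CPM on average, while SDHA itself had a mean of 12.7 CPM in sgCtrl and 10.5 CPM in EV. Other members also share exon bases with a gene on the same strand: ATP5PO 63.8%, COX8A 35.4%, ATP5MG 24.4%, SDHD 23.8% and UQCR11 18.1%. With a gene on the opposite strand, ATP5ME shares 39.6%, ATP5F1E 32.7%, UQCR10 19.7% and ATP5IF1 15.7%. The part of these overlaps in their values was not tested.

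**Figure D5:**
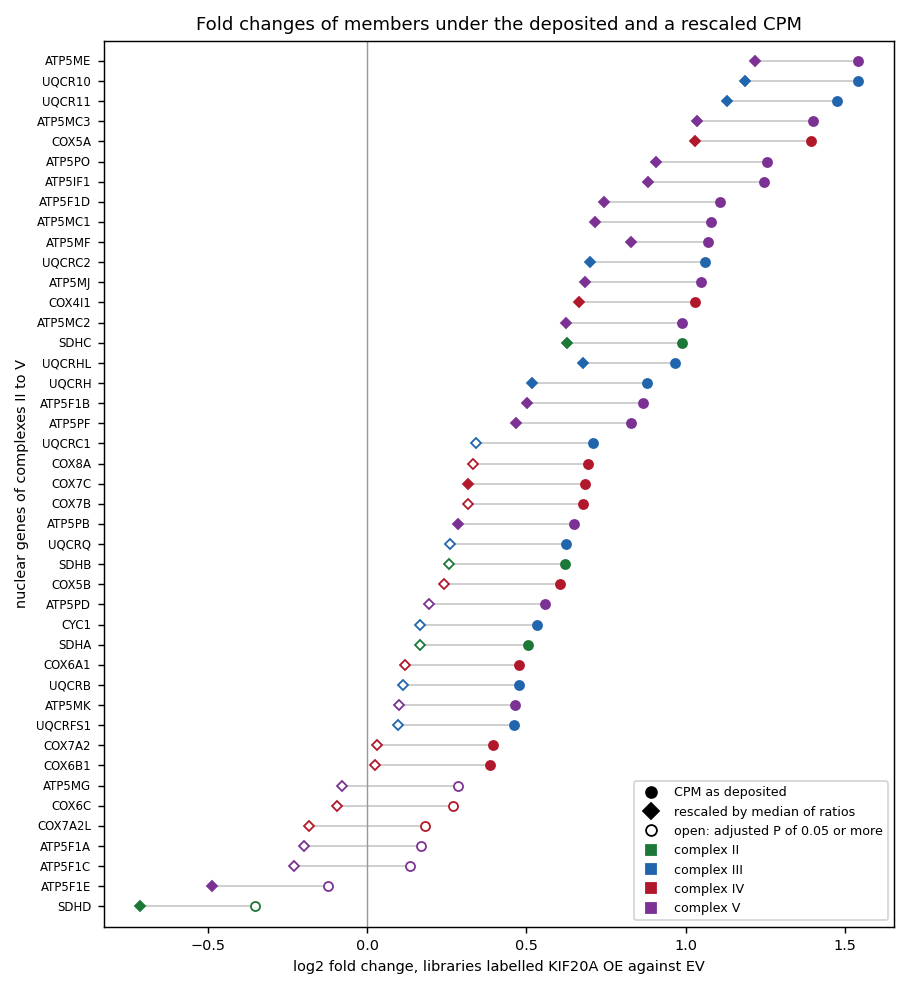
Log2 fold change of each tested member between the libraries labelled KIF20A OE and EV, from the CPM as deposited (circles) and rescaled by the median of ratios (diamonds), filled where adjusted P is under 0.05. Every diamond lies to the left of its circle, 36 circles are filled, and 23 diamonds are filled, of which SDHD and ATP5F1E lie below 0.

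The genes that build these complexes, and those that regulate them, were counted in the same comparison. Of 48 tested assembly factors and partners, 31 were higher and 4 lower on the deposited scale, against 46.2% and 23.4% of all genes, with a median log2 fold change of 0.63 against 0.37. After rescaling, 19 were higher and 5 lower, against 34.2% and 32.5%, with a median of 0.28 against 0.04. The copper chaperone genes COA6 (1.82) and COX17 (1.52), the ATP synthase chaperone gene ATPAF1 (1.75) and COX15 of heme a synthesis (1.66) were among the higher ones, and SCO2 (-0.96), SURF1 (-0.52), COA8 and SDHAF2 (both -0.42) were the lower ones; these 8 kept direction and call after rescaling. Of 11 regulators, 5 were higher and 1 lower on the deposited scale, with a median of 0.38 against 0.37 over all genes, and 3 were higher and 2 lower after rescaling, with a median of 0.03 against 0.04. PPARGC1B, which encodes PGC-1beta, a coactivator of mitochondrial genes, was listed at 2.05, 2.37 and 1.35 CPM in EV against 42.3, 52.1 and 43.4 CPM (limma, log2 fold change 4.02; 3.71 after rescaling). PPRC1 and GABPA were higher on both scales (0.86 and 0.89, then 0.50 and 0.53), and PPARGC1A was lower on both (-1.54, then -1.77). ESRRA did not pass on the deposited scale (-0.11, adjusted P = 0.537) but was lower after rescaling (-0.47, adjusted P = 0.0343). SP1 and YY1 (0.48 and 0.40) were higher on the deposited scale only (0.11 and 0.04 after rescaling), and NRF1 (0.38, then 0.03) passed on neither. The part of these genes and of the marker genes in the members' fold changes was not tested.

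In the sorted lines, 0 of 49 assembly genes and partners passed in either line, against 7.15% of all genes in Hs578T and 2.83% in HCC70. Their medians were -0.003 in Hs578T and -0.05 in HCC70. Of 10 regulators tested in Hs578T, MYC alone passed and was higher in BCSCs (limma, log2 fold change 0.23, adjusted P = 0.0257, against 2.9% of all genes higher), and 0 of 11 passed in HCC70.

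Paralogs used in specialized tissues were near 0 where the sgRNA and overexpression tables listed them. COX4I2 and COX6A2 were listed in the sgRNA table only. COX6A2, the muscle form of COX6A, had 0 reads in all 6 libraries of the sgRNA table, and COX8C, found in testis, likewise. In a single library taken alone, 0 reads still allow an expected count of up to 3. COX4I2, the lung and hypoxia form of COX4, had at most 2 reads in a library there, COX7A1, the heart and muscle form of COX7A, at most 9, and COX6B2, the testis form of COX6B, at most 13. In the overexpression table COX7B2 had 26 reads in EV replicate 3 and 0 in the other 5 libraries.

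Across the comparisons, the values of the markers can be set side by side, each from its own table. UQCRH had log2 fold changes of -0.08 in Hs578T BCSCs, 0.06 in HCC70 BCSCs, -0.38 for KIF20A sg1 against sgCtrl and 0.88 for the last comparison (0.52 after rescaling). COX5B had 0.07, -0.26, -0.67 and 0.60 (0.24 after rescaling), and SDHA had 0.01, 0.16, -0.14 and 0.51 (0.17 after rescaling). ATP5IF1, the largest difference after KIF20A sg1, had -0.07, -0.16, -1.02 and 1.24 (0.88 after rescaling). Differences between experiments were not tested, since the tables were normalized separately and the OE and sgRNA experiments differ in batch. The libraries labelled KIF20A OE also stood apart in their marker genes. There, 14 markers of MDA-MB-231 summed to 702 to 1190 CPM, against 11563 to 12835 CPM in EV. What the members' fold changes in that comparison owe to the vector and to other differences between the libraries cannot be told apart.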

How the data were processed

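RNA was measured by stranded poly-A RNA-Seq in 24 libraries. The submitters' processing notes name HISAT2 2.0.5, featureCounts 1.5.0-p3 and GRCh38; their roles and the gene annotation are not given in the sources used here. For the sorted lines, the authors deposited TPM, which keep no depth. For KIF20A sg1, the authors deposited a table named as CPM whose columns do not sum alike, so it is treated as a signal: reads divided by 1 factor per library. For KIF20A OE, the authors deposited CPM. In both of these, 100% of values were whole multiples of 1 read within 0.01, and reads were recovered for count tests.

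Each table was fitted alone with limma 3.58.1 (R 4.3.3, trend on log2(value + 1), mean of at least 1 over 6 samples), with Benjamini-Hochberg adjustment over all genes tested, so a fold change understates differences of low genes. The interaction of fraction and cell line was fitted over the 12 sorted libraries. Count tests on the recovered reads (edgeR 4.0.16, DESeq2 1.42.0), another pseudocount (0.1), other minimums, the median of ratios, quantile normalization, a replicate block and each sample left out were alternatives. Corrections for GC content and length (20 bins) and sums of overlapping rows were chosen after the values were seen. A direct exact permutation test of 3 against 3 cannot give less than 0.1. Replicates are biological triplicates per the labels; nothing ties them to separate cultures.

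The members and lists were chosen with earlier results of these data known. UQCRH, COX5B, SDHA, SDHB, SDHC, SDHD, COX8A and ATP5MF were named in every comparison, then up to 25 members past the test by size of change or, where none passed, those with an unadjusted P under 0.05; any other member or gene was named after its values were seen. In no experiment was the correlation of same-numbered deviations over 0.1 in every pair, so the numbers were not used as pairs. Figures were drawn with matplotlib 3.10.9.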

Additional observations from a re-analysis of the deposited data

Results flagged for a closer look

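For ATP5PO, the stalk subunit of ATP synthase, the difference between the sorted fractions itself differed between the cell lines in the main fit. Its log2 fold change in BCSCs against non-BCSCs was 0.31 higher in HCC70 than in Hs578T (limma interaction over 12 libraries, standard error 0.08, adjusted P = 0.0475). ATP5PO was the only 1 of 43 members with adjusted P under 0.05, against 7.11% of the 11668 genes tested. It was lower in 3 of 3 Hs578T BCSC libraries than in any non-BCSC library of that line, and the fractions overlapped in HCC70. With 1 library left out the difference lay between 0.25 and 0.36, and adjusted P between 0.0298 and 0.106, so the call was lost in 11 of 12 such fits. It was also lost after rescaling by the median of ratios (0.25, adjusted P = 0.0806) and with a replicate block (adjusted P = 0.0818). The lines were deposited in separate tables, so line and table cannot be told apart.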

How the results depend on the processing

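In Hs578T, 0 members passed, against 7.15% of all genes. With a minimum mean of 10, 1 did (ATP5PO), beside 383 higher and 414 lower of 9378 genes. With quantile normalization 1 did (UQCRQ), beside 474 higher and 602 lower of 13324. After GC correction 2 did, against 14.1% of all genes. With length corrected too, 2 did, beside 750 higher and 1110 lower of 13324. Leaving out 1 library gave 0 to 0. In HCC70, 1 member passed, against 2.83% of all genes. With a minimum mean of 10, 2 did, beside 412 higher and 123 lower of 9596 genes. After GC correction 2 did, against 3.96%. With 1 library left out, 0 to 2 passed. Without BCSC replicate 1 it was 0, beside 22 higher and 10 lower of 13218 genes. Without non-BCSC replicate 3 it was 2, beside 136 higher and 57 lower. The HCC70 median moved from -0.020 to -0.048 with the median of ratios and to -0.079 with quantile normalization. After KIF20A sg1, leaving out 1 library gave 0 to 5 members (5 without sgCtrl replicate 3), GC correction without that library gave 1, and DESeq2 gave 1; the median was -0.070 after GC and length correction. For the libraries labelled KIF20A OE, 36 members passed, compared with 23 with the median of ratios and 22 each with edgeR and DESeq2. Of all genes, 69.7% passed, 66.7% with the median of ratios, 65.1% with edgeR and 50.1% with DESeq2. The members' median of 0.68 became 0.32, 0.33 and 0.32, or 0.61 with quantile normalization. Leaving out 1 library gave 34 to 37 members. Without KIF20A OE replicate 1 it was 37, beside 6596 higher and 3275 lower of 15265 genes. Without EV replicate 2 it was 34, beside 6740 higher and 3412 lower. For the interaction, 1 member passed, against 7.11% of all genes. With a minimum mean of 10, 3 did, beside 460 higher and 125 lower of 8017 genes. With the median of ratios 2 did, beside 403 higher and 333 lower of 11668. With 1 library left out 0 to 3 did. Without Hs578T BCSC replicate 3 it was 3, beside 913 higher and 312 lower of 11668 genes. The cause of these shifts was not tested.

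With the replicate block, 0, 1, 0 and 36 members passed in Hs578T, HCC70, KIF20A sg1 and KIF20A OE, and 0 in the interaction. Over all genes, 288 were higher and 381 lower in Hs578T, and 94 and 34 in HCC70. For KIF20A sg1 these counts were 0 and 0, for KIF20A OE 6989 and 3556, and for the interaction 235 and 67. The samples share only a number: correlations of same-numbered deviations ranged from -0.16 to 0.19, and in the OE experiment 6 of 6 libraries correlated best with their own number.

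Some members near 0 changed sign. With quantile normalization, SDHA in Hs578T was -0.0019 and SDHB in HCC70 -0.021. With 1 library left out, in Hs578T COX5B ranged from -0.095 to 0.18, SDHA from -0.011 to 0.024 and SDHD from -0.021 to 0.086; in HCC70 SDHB ranged from -0.0081 to 0.078, SDHC from -0.11 to 0.13, COX8A from -0.096 to 0.040 and ATP5MF from -0.099 to 0.047; after KIF20A sg1 SDHB ranged from -0.12 to 0.050 and SDHD from -0.13 to 0.074.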

Other observations

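Levels per length in MDA-MB-231 were set beside those in Hs578T for members with and without exon overlap. For the 12 members with at least 15% of exon bases shared with another gene (GENCODE 44), the median log2 ratio of CPM per kilobase to TPM in Hs578T non-BCSCs was -3.09 in sgCtrl and -3.73 in EV. For the other 31 members it was -1.38 and -1.65. The ranges of both sets overlapped in each table (SDHD, among the 12, had -0.37 in sgCtrl, and ATP5IF1, also among them, 0.49 in EV), and line, experiment and unit differ along with the overlap.

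Of the 38 members with a RefSeq promoter, 8 held none of the letters searched for NRF1, ETS, YY1 and SP1, 16 held 1 kind, 10 held 2, 4 held 3 and 0 held all 4. Among windows with a GC content of 60% or more, ETS letters were in 33.3% of members and 6.48% of all windows, and SP1 letters in 76.2% and 78.1%.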
